A study of Mus musculus with 2 samples.

Results

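Megakaryocyte-erythroid progenitors were taken here as cells that carried transcripts of Med12l and Prkg1 and stayed below set limits for markers of other blood cells. A barcode was kept with at least 1000 genes, at least 2000 transcript counts (unique molecular identifiers, UMIs) and at most 10% mitochondrial UMIs. A kept cell entered the gate with at least 3 UMIs of Med12l plus Prkg1, under 3 of the stem cell genes Hlf, Mecom and Adgrl4, under 10 of the platelet factor gene Pf4 and under 30 of the granule genes Mpo and Prtn3. It also needed under 4 of the monocyte genes Irf8 and Ly86, under 4 of the mast and basophil genes Ms4a2, Mcpt8, Gzmb and Fcer1a, and under 30 of S100a8 and S100a9. The gate held 1220 of 14101 kept cells, of which 801 of 7001 came from Brd9 knockout and 419 of 7100 from control fetal liver.

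The cells were lineage-negative, c-Kit-positive cells of C57BL/6 fetal liver at E14.5, profiled by droplet single-cell RNA sequencing in 1 library per genotype. Knockout cells had the genotype CD45.2(+) Vav1-iCre Brd9fl/fl and control cells CD45.2(+) Brd9fl/fl, so both carried floxed Brd9. Vav1-iCre drives recombination in blood cells, and the embryos came from Brd9fl/fl males mated with Vav1-iCre; Brd9fl/fl females. Since no control had Vav1-iCre, effects of the recombinase and of Brd9 loss cannot be told apart. Each library pooled cells of both sexes. How many embryos were pooled is not stated in the labels. With 1 library per genotype there was no replicate error and no test. Values are CPM, the UMIs of a gene scaled to a total of 1000000 over all gated cells of a library, the log2 ratio is knockout over control, and its 95% interval covers counting error only. Values in female and male cells of each library are printed beside each other and are not replicates.

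Megakaryocyte-erythroid progenitors give rise to red cells and to megakaryocytes, the cells that shed platelets. GATA2 marks the earlier cells and GATA1 the later ones, KLF1 drives the red cell side, and MEIS1 and RUNX1 are active on the megakaryocyte and stem cell side. In mouse fetal liver these progenitors feed the rapid growth of the red cell pool before birth. Brd9 encodes a bromodomain protein found in only one of the BAF chromatin remodelling complexes, the non-canonical one, and Bicra and Bicral encode its other defining subunits. Med12l encodes a subunit of the Mediator kinase module and Prkg1 a cyclic GMP-dependent protein kinase.

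Brd9 was measured at 5.98 CPM in knockout female, 5.99 in knockout male, 23.6 in control female and 20.4 in control male gated cells. Over all gated cells it was at 5.73 against 21.1 CPM, a log2 ratio of -1.88 (-2.15 to -1.62). All knockout values lay below all control values, which matches the labels. The libraries were 3' tagged and the labels do not name the deleted exons, so whether the remaining UMIs are from recombined alleles was not tested. In the other kept cells the ratio was -1.93. Bicral was higher in the knockout, at 44.9 against 28.5 CPM (log2 0.66, 0.50 to 0.81), and Bicra was at 36.3 against 30.8 CPM (0.23, 0.08 to 0.39). Of 21 other measured BAF and PBAF subunit genes, core subunits among them, 11 were above 0 and 10 below. None went beyond 0.5 on the log2 scale, and their median was 0.00. The farthest from 0 were Bcl7b at 0.25 and Smarcc1, a core subunit, at -0.13.

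The gated cells held 30720558 knockout and 16887786 control UMIs, or per cell a median of 33730 and 37238. The median cell had 6088 and 6201 genes detected. Mitochondrial UMIs made up a median of 1.98% and 2.26%. Scrublet marked 52 knockout and 22 control gated cells as doublets, and 44 and 12 carried transcripts of both sexes, with a median of 67471 and 74682.5 UMIs. Female cells made up 58.1% of knockout and 24.8% of control gated cells. The libraries shared 15 kept barcodes, and none of them was gated in both. These doublets were left in the values below, and the gated share, the counts of called genes, the named genes and the list medians were repeated without them.

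The label was checked against 20 markers of megakaryocyte-erythroid progenitors. In each library 19 of the 20 were over 10 CPM in gated cells, and 12 were above their level in the other kept cells in both libraries. Their summed level was 2500 CPM in knockout and 2813 CPM in control gated cells, against 2177 and 2635 CPM in the other kept cells. Markers of the early and megakaryocyte side stood well above the other kept cells. Gata2 was at 3.62 times its level there in the knockout and 5.93 times in the control, and Itga2b, an integrin of megakaryocytes and early progenitors, at 4.10 and 6.95 times. Cd9, a surface protein of megakaryocytes and platelets, was at 2.69 and 3.11 times. Klf1 and Epor, markers of the red cell side, lay below their level in the other kept cells. Klf1 was at 0.64 and 0.66 times and Epor, the erythropoietin receptor, at 0.66 and 0.61 times, while Gata1 was at 0.97 and 1.02 times. Summed over gated cells, transcripts of both lineages were therefore present, with Klf1 and Epor lower than in the other kept cells. Whether single cells carried both was not tested.

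Other cell types were checked by their own markers. The gate itself limits Mpo, Prtn3, S100a8, S100a9, Hlf, Mecom, Adgrl4, Pf4, Irf8, Ly86, Ms4a2, Mcpt8, Gzmb and Fcer1a, which are among these markers. Low sums of granulocyte-monocyte, stem, mast and basophil, and monocyte-dendritic markers were therefore partly fixed by the gate. The same holds for Pf4 among the megakaryocyte markers. The 7 erythroid markers summed to 1247 and 1243 CPM in knockout and control gated cells, against 3917 and 4092 CPM in the other kept cells. The 6 megakaryocyte markers summed to 82.9 and 84.4 CPM, with Ppbp at 0 in both libraries. The 6 granulocyte-monocyte markers summed to 64.1 and 105 CPM, against 961 and 1783 CPM in the other kept cells. Stem markers summed to 108 and 113 CPM and mast and basophil markers to 31.3 and 25.5 CPM, with 0 markers at 0 in the knockout and 2 at 0 in the control. The 4 markers each of monocyte-dendritic cells, lymphoid cells, macrophages and endothelium or stroma summed to under 10 CPM in each library. Those of endothelium or stroma, at 9.02 and 2.19 CPM in knockout and control, were above the 0.57 and 0.59 CPM of the other kept cells. At least 1 of their UMIs was found in 4.62% of knockout and 6.21% of control gated cells. Hepatocyte markers summed to 3.19 and 77.2 CPM, and 1 control cell held 94.0% of the Afp UMIs. Granulocyte-monocyte markers thus stood lower in knockout than in control gated cells, and their part in the results below was not tested.

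The gate genes chose the cells, so their values are a description. Med12l was at 81.7 CPM in knockout female and 86.6 in knockout male cells, and at 65.7 in both sexes of the control. Prkg1 was at 291, 304, 278 and 266 CPM in the same order. A gated cell held a median of 7 UMIs of both genes together in either library, and the highest held 170 in the knockout and 137 in the control. UMIs of both genes were found in 66.4% of knockout and 61.3% of control gated cells, and 27.2% and 32.2% held Prkg1 alone. Med12l spans chr3:59005825-59318682 on the plus strand and Prkg1 chr19:30564489-31765033 on the minus strand of GRCm38. Levels of Muc13, Parm1, Clec4d, Dach1 and Rnf180 were among those most like the gate genes, by the highest ratio of gated to other kept cells in both libraries. Muc13, a membrane mucin, was at 9.32 and 9.30 times its level in the other kept cells, and Prkg1 itself at 9.18 and 10.2 times.

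The 250 bases before a RefSeq start of 4 genes are shown, because the gate rests on the first pair, Muc13 stood closest to them and had one of the lowest ratios, and Fcer1g had the highest ratio among the named genes searched. They are RefSeq sequences of GRCm38.p6, 5' to 3' on the strand of the gene, and for Prkg1 and Muc13 they lie before the first of 2 listed starts. The Med12l window lies inside the gene span given above, because the RefSeq start lies downstream of the start of that span. Capitals mark a GATA-type match on either strand, the letters GATA with A or T before them and A or G after them.

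Med12l, chr3:59006728-59006977, plus strand: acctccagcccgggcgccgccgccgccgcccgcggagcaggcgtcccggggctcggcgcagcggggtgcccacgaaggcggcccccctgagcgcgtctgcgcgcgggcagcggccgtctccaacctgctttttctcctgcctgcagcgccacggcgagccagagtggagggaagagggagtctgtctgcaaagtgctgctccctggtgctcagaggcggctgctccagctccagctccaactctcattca

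Prkg1, chr19:31765034-31765283, minus strand: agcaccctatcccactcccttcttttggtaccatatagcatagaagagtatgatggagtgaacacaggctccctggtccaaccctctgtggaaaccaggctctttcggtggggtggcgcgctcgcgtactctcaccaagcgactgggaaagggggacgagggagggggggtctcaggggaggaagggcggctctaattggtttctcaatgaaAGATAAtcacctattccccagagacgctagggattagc

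Muc13, chr16:33793787-33794036, plus strand: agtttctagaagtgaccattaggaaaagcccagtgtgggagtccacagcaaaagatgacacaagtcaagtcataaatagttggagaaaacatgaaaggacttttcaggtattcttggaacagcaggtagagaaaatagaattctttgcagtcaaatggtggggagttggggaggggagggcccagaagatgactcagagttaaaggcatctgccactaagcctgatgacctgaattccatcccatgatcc

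Fcer1g, chr1:171234350-171234599, minus strand: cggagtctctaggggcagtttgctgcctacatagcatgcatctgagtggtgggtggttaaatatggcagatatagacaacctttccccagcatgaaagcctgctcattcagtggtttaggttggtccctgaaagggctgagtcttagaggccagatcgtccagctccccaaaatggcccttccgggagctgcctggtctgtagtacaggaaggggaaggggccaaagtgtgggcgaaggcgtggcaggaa

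Prkg1 has 1 match, at position -38 from the start, and the windows of Med12l, Muc13 and Fcer1g shown have none. The windows before the second listed starts, which are not shown, hold 1 match for Muc13, at position -67, and none for Prkg1. Of all 32851 such windows listed for mouse genes, 26.5% hold a match. A match is a run of letters and shows no binding, and its absence shows nothing about a factor. Of 35 named genes, 22 had a promoter listed.

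A larger share of kept cells fell inside the gate in the knockout, 11.4% (10.7 to 12.2) against 5.90% (5.36 to 6.47) in the control, with exact Clopper-Pearson intervals. The ratio of the shares was 1.94 (1.73 to 2.17). In female cells the shares were 11.4% and 6.51%, and in male cells 10.7% and 5.68%. The knockout share was the higher in both sexes. The ratio of the female to the male share was 1.07 (0.93 to 1.23) in the knockout and 1.15 (0.92 to 1.42) in the control, with 1 inside both intervals. After each cell was thinned to 18631 UMIs, 8.90% of knockout and 4.65% of control cells passed. With UMIs of Med12l and Prkg1 at 1 and at 2, just outside the gate, the knockout share was 1.32 and 1.54 times the control share, and at 3 to 4 UMIs it was 2.16 times. It was 1.63 times at 5 to 9, 2.14 times at 10 to 19, 1.86 times at 20 to 49 and 2.35 times at 50 or more UMIs, the last from 44 and 19 cells, so the ratio did not climb steadily within the gate.

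**Figure D1:**
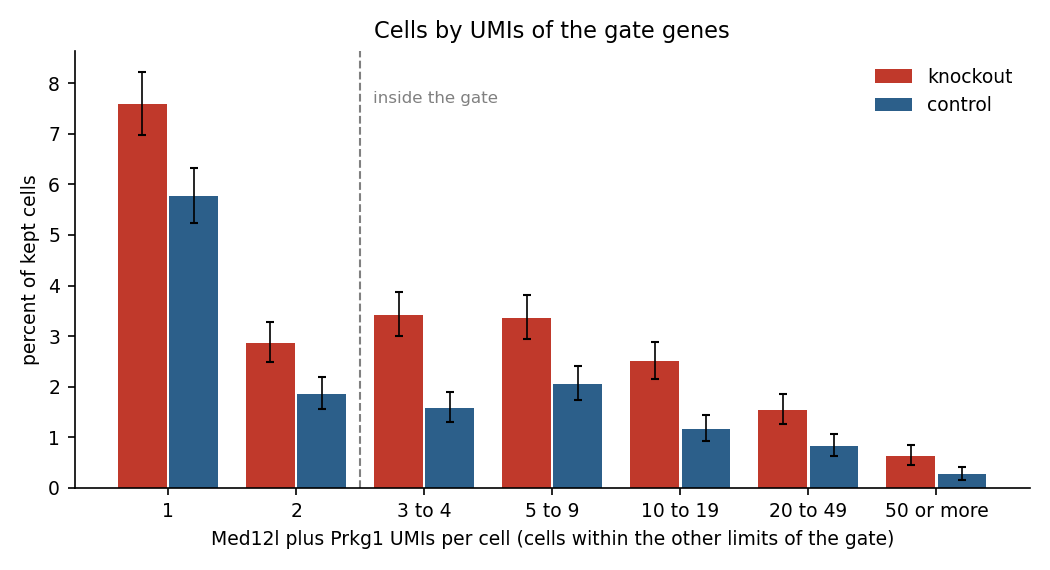
Percent of kept cells of each library (y axis) by their UMIs of Med12l plus Prkg1 (x axis), among cells within the other limits of the gate; error bars are exact 95% binomial intervals and cells with 0 UMIs are not drawn. The knockout bar is the taller in each bin, from 7.58% against 5.76% at 1 UMI to 0.63% against 0.27% at 50 or more.

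The upper limits of the gate bear on this ratio. At least 3 UMIs of Med12l plus Prkg1 were found in 1269 knockout and 900 control cells, 18.1% and 12.7% of kept cells, a ratio of 1.43 (1.32 to 1.55). The limits then left out 36.9% of these knockout and 53.4% of these control cells. The stem cell genes left out 23.2% and 35.8%, and Mpo with Prtn3 12.4% and 25.8%. Pf4 left out 4.81% and 4.89%. Control cells with Med12l and Prkg1 thus more often also carried stem or granule transcripts, and their share inside the gate depends on those limits. The control library as a whole also held more such cells. Of 7001 knockout and 7100 control kept cells, 747 and 1203 were over the Mpo and Prtn3 limit and 543 and 700 over the stem limit. A share also depends on how many other cells each sort held.

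Transcript levels inside the gate varied with the UMIs of the gate genes. At exactly 3 UMIs of the gate genes, Hba-a1, an alpha-globin, was at 639 CPM in 148 knockout and 917 CPM in 71 control cells, and Klf1 at 204 and 197 CPM. At 20 or more UMIs, in 152 and 78 cells, Hba-a1 was at 77.5 and 30.1 CPM and Klf1 at 83.3 and 79.5 CPM. Meis1 ran the other way, from 55.6 and 48.0 to 454 and 386 CPM. Since Meis1 is active on the megakaryocyte and the stem cell side, it does not tell these apart. Gata1 hardly moved, from 137 and 117 to 121 and 128 CPM. Just outside the gate, at 2 UMIs, Meis1 was at 61.5 and 24.2 CPM and Hba-a1 at 589 and 645 CPM. Along the range of alpha-globin UMIs, 34.0% of knockout and 44.6% of control gated cells held up to 1 UMI, 38.2% and 31.7% held 2 to 4, and 27.8% and 23.6% held at least 5.

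Across 6307 genes with a mean of at least 20 CPM, 3540 log2 ratios were above 0 and 2767 below, and the median was 0.01. A gene is called when its ratio lies beyond 0.5 in either direction. In gated cells 64 genes were called, 1.01% of those tested, of which 24 were higher in the knockout (0.381%) and 40 lower (0.634%). Beyond 1 there were 2 higher and 11 lower. The 2 higher ones were the sex-linked Xist and a predicted gene, so no gene that could be named was higher by over 1, while 8 were lower. Among genes that could be named the lowest were Apoc1, Muc13, Dach1 and Apoe. Brd9 had a mean under 20 CPM, so it was not among the genes tested and is left out of these counts. Of the called genes, 55 could be named. The others were Afp, Hbb-bt and Ifitm1, in which 1 control cell held over 10% of UMIs, the gate gene Mpo, 3 sex-linked genes and 2 predicted genes.

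Muc13 (chr16:33794037-33819934, plus strand), whose promoter is shown above, was at 19.6 CPM in knockout female and 20.5 in knockout male cells, and at 87.7 and 83.8 in control female and male cells. Both knockout values lay below both control values by about the same factor. Its log2 ratio was -2.12 (-2.27 to -1.98), and it was -2.13 in the other kept cells, where Muc13 was at 8.73 CPM in the control. After thinning, 24.1% of knockout and 67.7% of control gated cells held a Muc13 UMI, against 4.26% and 20.4% of cells in the granulocyte-monocyte range. In cells with up to 1, 2 to 4 and at least 5 alpha-globin UMIs the ratio was -1.99, -2.01 and -2.16.

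Apoe, a lipid carrier protein, was at 333 and 316 CPM in knockout female and male cells and at 960 and 813 CPM in control ones. Both knockout values were far below both control values, a ratio of -1.41 (-1.45 to -1.37). Apoc1, a small apolipoprotein, was at 8.97 and 4.39 CPM against 36.2 and 43.0 CPM, a ratio of -2.55 (-2.78 to -2.32). Both lie on the minus strand of chromosome 7, Apoc1 at 19689481-19692660 and Apoe at 19696109-19699188, and both were low in each knockout value. Dach1, a transcriptional cofactor, was at 40.3 and 32.5 CPM against 70.9 and 109 CPM, a ratio of -1.50 (-1.61 to -1.38), with -0.81 in female and -1.75 in male cells. Apoe was higher towards the Meis1-rich end of the gate in both genotypes. It was at 201 and 562 CPM in knockout and control cells with 3 to 4 UMIs of the gate genes and at 406 and 1051 CPM with 10 or more.

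The other 8 of the 12 lowest ratios lay between -1.30 and -0.83. Ifngr1, the ligand-binding chain of the interferon gamma receptor, was at 54.1 and 48.6 CPM in knockout female and male cells against 93.2 and 107 CPM (-1.01). Hmga2, a chromatin protein of fetal stem and progenitor cells, was at 55.1 and 58.8 CPM against 93.2 and 110 CPM (-0.87). In both the knockout values were close together and both control values were higher. Smim5 was at -1.30, the adaptor gene Sh2d4a at -1.23, Epdr1 at -1.13 and Lst1 at -0.84. Vim, the intermediate filament vimentin, was at 164 and 190 CPM against 358 and 291 CPM, a ratio of -0.83 (-0.89 to -0.77). In the other kept cells Vim was at -0.26, and the difference between the gated and the other cells was -0.57 (-0.63 to -0.51). The next ratio outside the 12 lowest was also -0.83.

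**Figure D2:**
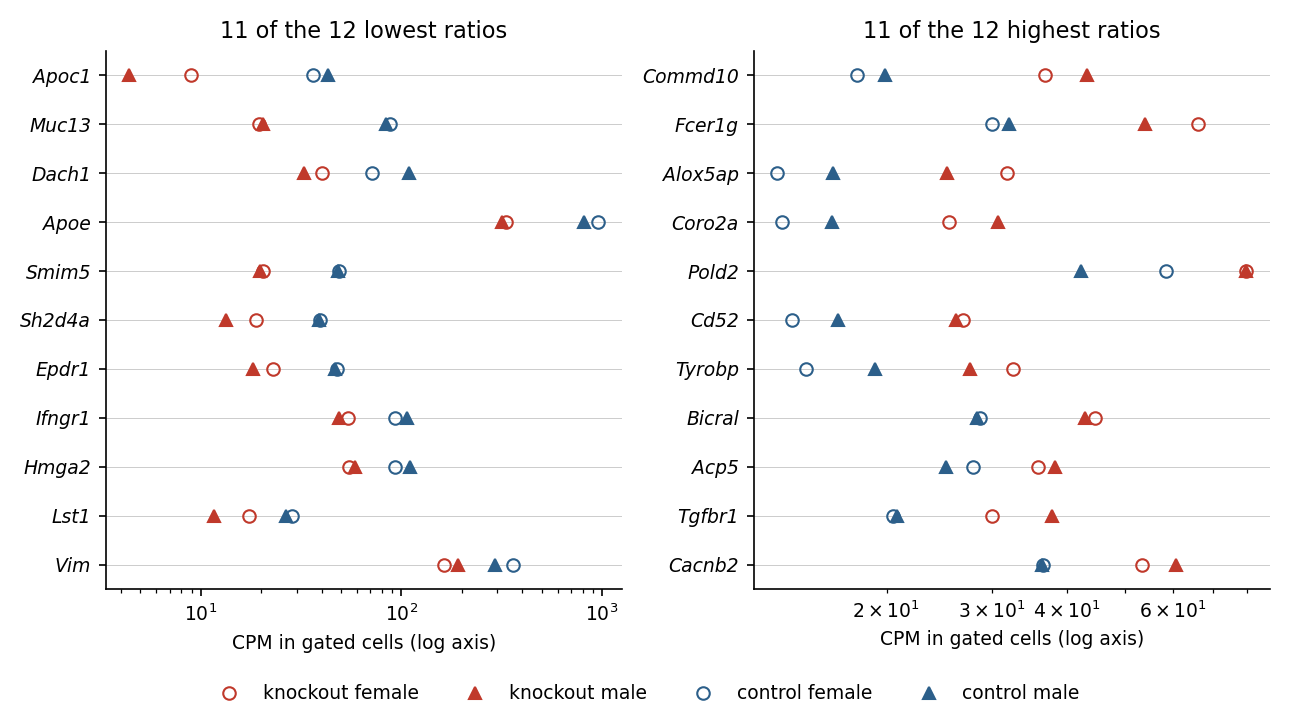
CPM on a log axis (x) of 11 of the 12 genes with the lowest (left) and 11 of the 12 with the highest ratio (right) in gated cells, female (open circles) and male (filled triangles), of the knockout (red) and control (blue) library. The genes were chosen by the ratio of these levels, and for each both knockout values lie on one side of both control values; Acp5 comes closest, with 35.8 in the knockout against 27.8 CPM in the control in female cells.

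The 12 highest ratios included Fcer1g, Tyrobp, Alox5ap and Cd52. Fcer1g, the common gamma chain of Fc receptors, was at 66.1 and 54.0 CPM in knockout female and male gated cells and at 29.9 and 32.0 CPM in control ones, a log2 ratio of 0.96 (0.81 to 1.10). Tyrobp, the related adaptor also called DAP12, was at 32.5 and 27.5 against 14.7 and 19.1 CPM, a ratio of 0.69 (0.50 to 0.88). Alox5ap, needed for leukotriene synthesis, was at 31.8 and 25.3 against 13.1 and 16.3 CPM (0.84, 0.64 to 1.05). Cd52, a small surface glycoprotein of leukocytes, was at 26.8 and 26.1 against 13.9 and 16.6 CPM (0.72, 0.52 to 0.93). The knockout values of all 4 genes were above both control values.

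The same 4 genes did not have this ratio in the other kept cells. There Fcer1g was at 0.15, Alox5ap at 0.07, Cd52 at -0.27 and Tyrobp at -0.39. The gated ratio exceeded the ratio of the other kept cells by 0.81 (0.66 to 0.95) in Fcer1g, 0.78 (0.57 to 0.99) in Alox5ap, 0.995 (0.79 to 1.20) in Cd52 and 1.08 (0.89 to 1.27) in Tyrobp. These intervals cover counting error only. All 4 were at higher levels in cells over the mast limit, where Fcer1g was at 495 CPM in the knockout and 343 in the control, Tyrobp at 582 and 574, Alox5ap at 279 and 205 and Cd52 at 171 and 149. Their levels in cells over the other limits are not given here, so these values do not single out the mast range. Inside the gate Cpa3, a mast cell protease that the gate does not limit, was at 30.4 and 23.6 CPM (0.37), while Mpo was at 32.2 and 54.5 CPM. Cpa3 was the 1 gene above 0 among the 3 measured members of the longer mast and basophil list. The 2 below were Gata2, at the median of -0.05, and Srgn at -0.33. Both also belong to other lists used here, Gata2 to the progenitor markers and Srgn to the megakaryocyte surface and granule genes. They are therefore not particular to mast cells. All 14 members of the mast and basophil list, these included, summed to 412 knockout and 482 control CPM. With the gate set after thinning, Tyrobp was at 0.46 and Cd52 at 0.48, and neither was called. Fcer1g was at 56.0 and 28.3 CPM in gated cells without Pf4 UMIs, at 61.0 and 32.1 CPM with 5 to 9 UMIs of the gate genes, and at 71.5 and 41.5 CPM with 10 or more. The part of mast-side cells in these ratios was not tested.

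**Figure D3:**
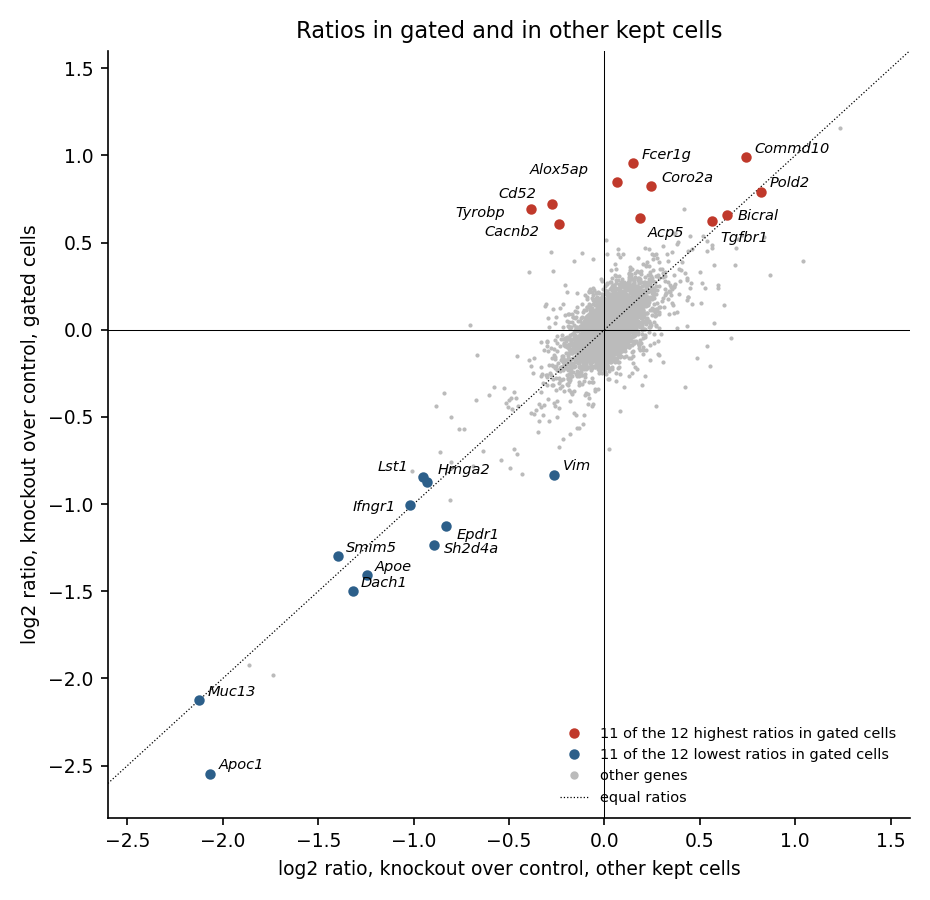
Log2 ratio of knockout over control in gated cells (y) against that in the other kept cells (x), 1 point per gene with at least 20 CPM in gated cells; red and blue mark 11 of the 12 highest and 11 of the 12 lowest ratios, and Afp and Gm47283 lie beyond the axes. Most blue points lie near the dotted line of equal ratios, while Fcer1g, Alox5ap, Cd52, Tyrobp and Cacnb2 lie well above it and Vim below.

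Of the other genes of the highest 12, some had a ratio above 0.5 in the remaining cells too and others did not. Commd10, a COMMD family gene, was at 36.8 and 43.1 CPM in knockout female and male cells against 17.9 and 19.9 CPM, a ratio of 0.99 (0.81 to 1.17), and it was at 0.74 in the other kept cells. Of 9 measured genes of its family, it was the only one beyond 0.5. Pold2, a subunit of DNA polymerase delta, was at 79.5 and 79.6 CPM against 58.6 and 42.2 CPM (0.79), with 0.82 in the other kept cells. The transforming growth factor receptor gene Tgfbr1 was at 0.62 and 0.57. Coro2a, an actin-binding coronin, was at 0.82 and the phosphatase gene Acp5 at 0.64, against 0.25 and 0.18 in the other kept cells. Cacnb2, a calcium channel subunit, was at 53.4 and 60.9 against 36.5 and 36.3 CPM (0.61), and its ratio in the other kept cells was -0.24, a difference of 0.85 (0.70 to 0.99). With the gate set after thinning Cacnb2 was at 0.25 and was no longer called, and in female cells alone Pold2 was at 0.44 and Acp5 at 0.36. The next ratio outside the 12 highest was 0.55.

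Of the 55 called genes that could be named, 22 were higher and 33 lower. Both knockout sex values were above both control values in 22 of 22 and below them in 32 of 33, and the exception was Ctse, against 26.3% and 17.0% of all genes tested. The ratio had the same sign in all 3 alpha-globin ranges in 22 of 22 and 33 of 33, against 21.5% and 17.5%. The genes were chosen by the same ratio, so these counts describe them only. In the other kept cells 19 of the 22 were above 0, as were 65.5% of the genes tested, and 32 of the 33 were below 0, as were 34.5%. There 9 of the 22 were above 0.5 and 18 of the 33 below -0.5, against 0.46% and 0.571% of those genes.

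**Figure D4:**
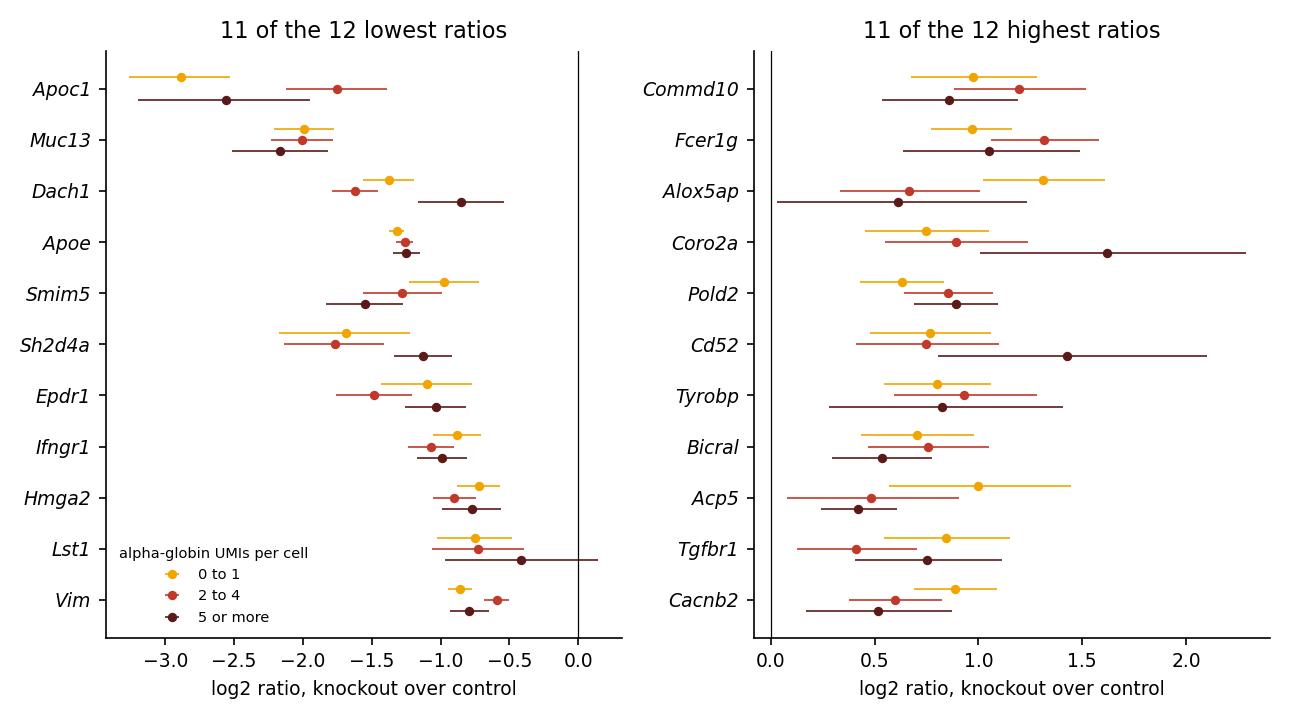
Log2 ratio of knockout over control (x) of 11 of the 12 lowest (left) and 11 of the 12 highest (right) genes, computed within gated cells with 0 to 1, 2 to 4 and 5 or more alpha-globin UMIs; lines are 95% intervals of counting error. All points lie on the side of 0 that chose the gene, and with 5 or more UMIs the interval of Lst1 reaches 0.

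The lineage lists were described by counts and medians. For comparison, 3540 of all 6307 genes tested were above 0 and 1.01% lay beyond 0.5 in either direction. Of the 19 measured markers of megakaryocyte-erythroid progenitors, 5 were above 0 and 14 below, 1 beyond 0.5 upwards and 3 downwards, with a median of -0.12 against 0.01 over all genes. The carbonic anhydrase gene Car2 was at -0.57 and the protease gene Ctse at -0.56. Kit, the stem cell factor receptor by which the cells were sorted, was at 85.8 and 97.1 CPM in knockout female and male cells against 113 and 116 CPM, a ratio of -0.37 (-0.45 to -0.28). Gata1 was at 130 and 128 CPM (0.02, -0.05 to 0.10). Gata2 was at 74.0 and 76.4 CPM (-0.05, -0.15 to 0.05), and its female and male values overlapped between the genotypes.

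Gata2 differed from the rest of the series in this. In the other kept cells it was at 20.4 CPM in the knockout and 12.9 in the control, a ratio of 0.66, and the gated ratio lay 0.71 below it (difference -0.71, -0.83 to -0.59). Gata2 was at 0.67 in cells over the stem limit and 0.25 in cells over the mast limit. Inside the gate it was at 44.0 CPM in knockout and 32.6 in control cells with exactly 3 UMIs of the gate genes. With 20 or more UMIs it was at 120 and 130 CPM. Meis1 was higher in the knockout both inside and outside the gate. It was at 217 and 231 CPM in knockout female and male gated cells against 151 and 157 CPM, a ratio of 0.47 (0.40 to 0.53), and at 0.69 outside. In cells over the Pf4 limit, 63 and 45 in number, Meis1 was at 476 and 435 CPM (0.13).

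Of the red cell lists, those of transcription factors, membrane and early genes had medians below 0 both inside the gate and in the other kept cells. Their medians were -0.08, -0.07 and -0.11 inside the gate and -0.03, -0.04 and -0.13 in the other kept cells, in that order. Of 13 erythroid transcription factors, 3 were above 0 and 10 below with a median of -0.08 and none beyond 0.5. The farthest were Nfe2 at -0.37, Myb at -0.26 and Sox6 at -0.18, and Klf1 was at -0.09. Of 13 red cell membrane genes, 4 were above and 9 below, with 2 beyond 0.5. The water channel gene Aqp1 was at -0.70, Add2 at -0.48 and Ermap at -0.45. Of 14 early erythroid genes, 3 were above and 11 below (median -0.11), with Aqp1, Car2, Ermap and Car1 (-0.44) farthest. The 14 heme and iron genes had a median of 0.01, 8 above and 6 below and none beyond 0.5.

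Globin ratios differed in sign between female and male cells for 3 of the 4 measured genes, a difference that was not tested. Hbb-bt, an adult beta-globin, was at 77.2 and 61.7 CPM in knockout female and male cells against 497 and 289 CPM, a ratio of -1.93 (-1.99 to -1.86), with 11.0% of its control UMIs in 1 cell. Hbb-bs, the neighbouring beta-globin, was at 317 and 537 against 685 and 284 CPM, and Hba-a1 at 277 and 466 against 530 and 263 CPM. Both were lower in knockout female and higher in knockout male cells. The median of the 4 measured globins was 0.36 over all cells, -1.02 in female and 0.86 in male cells. The near-identical globin copies can share reads, so the split between Hbb-bt and Hbb-bs, and between Hba-a1 and Hba-a2, is uncertain.

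The megakaryocyte lists were mixed. Of 10 transcription factors, 7 were above 0 and 3 below with a median of 0.11, with Meis1 at 0.47, Runx1 at 0.29 and Nfe2 at -0.37. Of 9 surface and granule genes, 4 were above and 5 below with a median of -0.14. Plek, a platelet signalling protein, was at 0.45, the platelet glycoprotein gene Gp9 at 0.39 and Cd9 at 0.24, while Srgn, a granule proteoglycan, was at -0.33 and Itga2b at -0.21. In the other kept cells the same 9 genes had a median of 0.35. Of 12 platelet cytoskeleton and signalling genes, 9 were above and 3 below with a median of 0.08, among them Plcg2 at 0.44, Rgs18 at 0.43 and Rap1b at 0.29. No member of the last pair of lists went beyond 0.5.

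**Figure D5:**
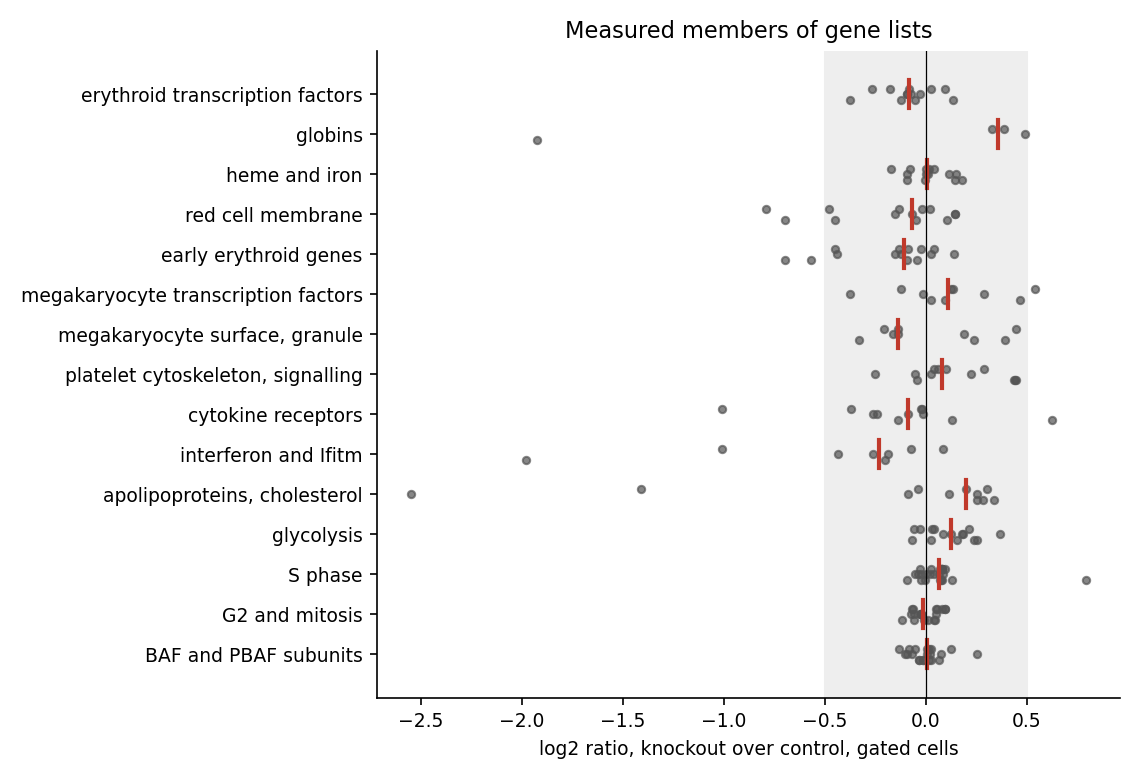
Log2 ratio of knockout over control (x) of each measured member (grey points) of 15 gene lists (y), with the list median as a red bar; the shaded band spans -0.5 to 0.5. Medians lie within the band for every list drawn, and the points farthest out are Apoc1, Ifitm1, Hbb-bt and Apoe.

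Receptor and interferon genes lay mostly below 0. A gene can belong to more than 1 list, so the counts of these lists need not be of separate genes. Of 11 cytokine receptor genes, 2 were above and 9 below (median -0.09), with Ifngr1 and Tgfbr1 at the ends, Kit at -0.37 and Ifnar2, an interferon receptor chain, at -0.26. Of 8 interferon and Ifitm genes, 1 was above and 7 below (median -0.23). Ifitm1, an antiviral membrane protein, was at 19.4 and 16.9 CPM in knockout female and male cells against 72.5 and 78.1 CPM, a ratio of -1.98, with 19.8% of its control UMIs in 1 cell. Ifitm3 was at -0.44. Of 11 apolipoprotein and cholesterol genes 7 were above and 4 below with a median of 0.20. Apoe and Apoc1 were the low ones, while the synthesis gene Idi1 was at 0.30.

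Growth genes differed little. Of 24 S-phase genes, 16 were above 0 and 8 below with a median of 0.07, and Pold2 alone was beyond 0.5. Of 20 genes of G2 and mitosis, 9 were above and 11 below with a median of -0.02 and none beyond 0.5. Of 15 glycolysis genes, 12 were above and 3 below with a median of 0.12, with the phosphofructokinase gene Pfkp at 0.37 and Aldoa at 0.25. None of the 3 lists of lymphoid, macrophage and endothelial or stromal genes had a measured member.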

How the data were processed

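Lineage-negative c-Kit+ cells of E14.5 fetal liver were measured in 2 libraries, 1 per genotype, with a 10x Genomics 3' kit, per the labels' protocols. Per the submitters' processing notes, Cell Ranger 7.2.0 and mm10 were used, and the authors deposited raw UMI counts for each gene in each barcode. The counting of intronic reads is not given in the sources. The deposited libraries held 7289 knockout barcodes with 271350214 UMIs and 7399 control barcodes with 292972312 UMIs, over 32285 genes.

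Cells were filtered and gated as described above. The members and the 46 gene lists were chosen with earlier results of these data known. UMIs were summed over gated cells and scaled to CPM, and ratios of the sums have conditional exact 95% intervals. A log-normal interval was used for a ratio of 2 shares. Shares of cells with a UMI were taken after thinning to 18631 UMIs per cell, which is percentile 5 of kept cells, leaving out 37 knockout and 14 control gated cells and 42 and 41 of the granulocyte-monocyte range below it. Doublets were called with Scrublet in scanpy 1.11.5 at an expected rate of 6%, and were kept. Female cells had at least 3 Xist UMIs and at most 1 UMI of 4 Y-linked genes. Male cells had at most 1 Xist UMI. Counts came from python 3.11.15 with scipy 1.17.1.

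Genes with a mean of at least 20 CPM were tested for size only, beyond 0.5 on the log2 scale. Named were the 12 highest and 12 lowest ratios among genes with UMIs in at least 50 gated cells and at most 10% of UMIs in 1 cell, without sex-linked, mitochondrial, ribosomal, predicted and gate genes. Also named were Brd9, Bicra, Bicral, Kit, Gata1, Gata2, Med12l and Prkg1, up to 4 members of each described list and the 6 genes most like the gate genes. Other genes printed were chosen after their values were seen, as were the promoters. A few genes picked by this rule are left out here. Gene coordinates come from GENCODE M21 (GRCm38), which held 32158 of the gene identifiers. Counts of 6307 genes of this comparison were simulated as Poisson sums without spread between cells, so they check the counting interval only. The true value lay inside the interval in 100% of 50 genes at a 0.25-fold and 92% at a 0.5-fold change. It did so in 100% at each of a 2-fold and 4-fold change, and for 95.1% of unchanged genes. Alternatives covered the level minimum, the call size, scaling, doublets, sex, filters, the gate and reweighting of cells.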

Additional observations from a re-analysis of the deposited data

Results flagged for a closer look

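In 5 of the genes reported here the log2 ratio lay beyond 0.5 in opposite directions in female and male gated cells, with values given as knockout over control. The difference between the sexes was not tested, and each sex of a library comes from an unknown number of embryos. Tox, a transcription factor of the HMG box family, was at -1.14 in female cells (19.2 against 42.3 CPM) and 1.75 in male cells (49.9 against 14.9 CPM). The beta-globin Hbb-bs was at -1.11 and 0.92. The alpha-globins Hba-a1 and Hba-a2 were at -0.93 and 0.82, and at -0.57 and 0.90. Cdk5rap1 was at 1.12 in female cells (38.2 against 17.6 CPM) and -0.86 in male cells (11.4 against 20.6 CPM).

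Without Xist, Y-linked and the other kinds of gene left out of naming, 39 of 6088 genes in the control differed between female and male cells by over 0.5, and in the knockout 20 did. Between the genotypes 107 did in female and 82 in male cells.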

How the results depend on the processing

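No paired analysis was possible because the labels give no replicate numbers and each genotype has 1 library, and for the same reason no replicate could be left out. Against 24 genes higher and 40 lower by over 0.5, a minimum of 10 CPM gave 56 and 67, a minimum of 50 CPM gave 6 and 17, and no minimum gave 2114 and 2122. Beyond 1, 2 were higher and 11 lower. Female cells alone gave 52 higher and male cells alone 38, while the lower counts of 55 and 47 stayed within 1.5 times. The other settings gave 22 to 35 higher and 38 to 46 lower genes. Without Scrublet doublets 58 of the 64 called genes were called again, in female cells 45 and in male cells 52. With the gate set after thinning 47 were called again, and with at least 2 UMIs of Med12l plus Prkg1 51 were. The ratio of shares was 1.43 with no upper limits, and 1.75 to 2.14 under the other alternatives. No named gene beyond 0.5 changed direction under the 15 alternatives run for it. Cacnb2 ranged from 0.25, with the gate set after thinning, to 0.75 in male cells, Pold2 from 0.44 in female to 0.92 in male cells and Tyrobp from 0.46, when the gate was set after thinning, to 1.15. Of 39 lists with at least 3 measured members, 18 had a median above that of all genes, and 17 to 22 did under the alternatives. The globin median ran from -1.02 to 0.86.

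Depth limits genes near 20 CPM most, since female control cells held 3807916 UMIs in 104 cells. Intervals cover counting error only and say nothing of the spread between embryos, which 1 library per genotype cannot give.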

Other observations

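Several gene groups not described above held single genes beyond 0.5 in gated cells. Of all 6307 genes tested, 3540 were above 0 and 1.01% lay beyond 0.5 in either direction. The counts given here were not tested against these shares. Of 12 measured calcium and potassium channel genes, 10 were above 0 and 2 below with a median of 0.06. Cacnb2 was the high one, and Kcnn4, a calcium-activated potassium channel of red cells and their precursors, was at 73.1 and 76.7 CPM in knockout female and male cells against 118 and 124 CPM (-0.68). Of 8 protein kinase C and cyclic nucleotide genes, 4 were above and 4 below, and Prkca was at 138 and 146 against 88.8 and 97.5 CPM (0.52). Of 20 cytoskeletal and adhesion genes, 10 were above and 10 below with a median of 0.00. Vim was the low one, and Tmsb4x, an actin-binding peptide, was at 1408 and 1300 against 854 and 949 CPM (0.51, 0.49 to 0.54), while its ratio in the other kept cells was 0.01.

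Of 14 DNA end joining and repair genes, 9 were above 0 and 5 below with a median of 0.05, and Xrcc4, a ligation cofactor, was alone beyond 0.5 at 41.6 against 29.2 CPM. Of 12 regulators of G1, 8 were above and 4 below with a median of 0.12, from Cdk6 at -0.29 to Cdk2 at 0.44. The 5 measured sphingosine pathway genes were all above 0, between 0.00 and 0.26. The 11 genes of CTCF and cohesin had a median of -0.01 and lay between -0.05 and 0.11. Of 11 genes of serine, glycine and one-carbon use, 8 were above and 3 below, and Gcat was at 0.53.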
